A study of Mus musculus with 18 samples.

Results

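The RIKEN non-coding RNAs are mouse transcripts first described as full-length cDNA clones, which still carry the clone identifier ending in Rik as a gene name on the array and a RefSeq accession of the non-coding (NR) series. All array probes with such a name and accession were taken, with no use of measured values: 306 probes of 261 genes, out of 55681 probes under 35527 gene names. RNA was measured in pools of 5 to 10 intact single myofibers of wild-type CD1 females aged 3 months, from 3 leg muscles: soleus, tibialis anterior (TA) and extensor digitorum longus (EDL). The fibers were freed with collagenase and lysed, and RNA was taken from the pelleted nuclei and from the remaining cytoplasm, which gave 6 groups with 3 arrays each, 18 in all. By the labels a pool came from 1 mouse or a pair of mice, and TA cytoplasm 1 and TA cytoplasm 2 both drew on mouse 5.

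A long non-coding RNA (lncRNA) that acts on chromatin or is kept at its site of transcription is found mostly in the nucleus, while a spliced and exported one is found with the ribosomes and granules of the cytoplasm. Some act as hosts from whose primary transcript microRNAs or small nucleolar RNAs are cut, some overlap a coding gene on the opposite strand, and some have turned out to encode a micropeptide. A myofiber is a single cell with many nuclei, so its fractions can be separated from a handful of cells.

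The sequences below are those on which the results turn. The microRNAs miR-99a-5p, miR-100-5p and miR-22-3p go with member genes named as their hosts, Mir99ahg (2810055G20Rik), Mir100hg (2610203C20Rik) and Mir22hg (2210403K04Rik). Capitals mark the seed, bases 2 to 8, which miR-99a-5p and miR-100-5p share. They are the RefSeq mature sequences of build GRCm38.p6, printed 5′ to 3′. The arrays measured the host transcripts and not these mature RNAs.
miR-99a-5p: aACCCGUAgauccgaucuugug
miR-100-5p: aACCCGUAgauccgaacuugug
miR-22-3p: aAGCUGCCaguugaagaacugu

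The next set are probes as printed on the array, with positions on mm9, shown because they stand at the nuclear or the cytoplasmic end of the members or because probes of the same gene differed. Mir99ahg lies at chr16:77501748-77501806 on the plus strand. The Firre (6720401G13Rik) probes lie on the minus strand at chrX:47911457-47911516 (probe 1) and chrX:47923255-47923314 (probe 2). D330041H03Rik lies at chr17:24547069-24547214 on the minus strand, and its capitals mark the 50 bases that a probe for Abca3, a lipid transporter gene, covers on the opposite strand. 1810064F22Rik lies at chr9:22011422-22011481 on the minus strand and 4933406F09Rik at chr14:8254185-8254244 on the plus strand. The 2810410L24Rik probes lie on the minus strand at chr11:120050889-120050948 (probe 1) and chr11:120049804-120049863 (probe 2), where capitals mark 55 bases covered on the opposite strand by a lincRNA probe. Mhrt (D830015G02Rik) lies at chr14:55592952-55593011 on the plus strand.
Mir99ahg: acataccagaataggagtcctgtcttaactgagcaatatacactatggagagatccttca
Firre, probe 1: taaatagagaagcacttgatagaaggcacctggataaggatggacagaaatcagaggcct
Firre, probe 2: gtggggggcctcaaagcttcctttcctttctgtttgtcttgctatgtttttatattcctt
D330041H03Rik: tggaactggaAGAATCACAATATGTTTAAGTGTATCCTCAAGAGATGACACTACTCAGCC
1810064F22Rik: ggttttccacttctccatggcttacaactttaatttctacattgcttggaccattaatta
4933406F09Rik: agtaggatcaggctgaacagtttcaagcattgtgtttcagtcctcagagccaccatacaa
2810410L24Rik, probe 1: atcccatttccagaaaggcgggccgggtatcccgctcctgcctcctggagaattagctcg
2810410L24Rik, probe 2: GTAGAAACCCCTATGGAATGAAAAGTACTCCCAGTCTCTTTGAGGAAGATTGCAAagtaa
Mhrt: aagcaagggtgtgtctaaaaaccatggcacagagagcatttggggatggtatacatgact

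All 306 probes were described on the array as non-coding RNAs, but the RefSeq table (GRCm38.p6) gave a wider range of classes. It matched 272 of them by accession, 20 by synonym and 10 by symbol, and 4 had no match. Of the 261 genes, 208 were lncRNAs, 31 were transcribed pseudogenes, 20 were now protein coding and 2 had no match, and 53 genes now carry another symbol. The clone prefix gives the tissue of the library. Among the array's other probes that are described by clone, all 685 with the prefixes taken as testis named testis, and all 36 with the tongue prefix named tongue. By these prefixes 91 member genes came from testis and 3 from tongue.

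Some member genes were not detected in these fibers. The scanner software marks a spot as well above background when its signal stands clear of the local noise, and 57 of the 261 genes had no probe so marked on any array, while 204 had one on at least 1 array. By probe, 68 of 306 (22.2%) were so marked on no array, beside 15.0% of all probes and 17.3% of probes for Rik genes with a coding (NM) accession. In EDL cytoplasm 144 of the 306 probes (47.1%) were well above background on 3 of 3 arrays, and in EDL nuclei 159 (52.0%). In soleus the counts were 134 (43.8%) in cytoplasm and 162 (52.9%) in nuclei, and in TA 153 (50.0%) and 144 (47.1%). So nuclei had the higher count in EDL and soleus and cytoplasm in TA. Over all probes of the array the 6 shares lay between 53.9% and 63.0%, and over the Rik NM probes between 50.4% and 61.2%, so in each group the members had the lowest share of these 3 sets. Members from testis clones had lower shares than the members as a whole, 31.4% to 40%. Of their 105 probes 28 (26.7%) were well above background on no array. The 3 probes of tongue clones had shares of 0% to 33.3%, and the 17 of genes with an antisense name 23.5% to 47.1%. The 27 probes of genes now listed as protein coding had shares of 66.7% to 81.5%. These shares were not tested against each other.

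**Figure D1:**
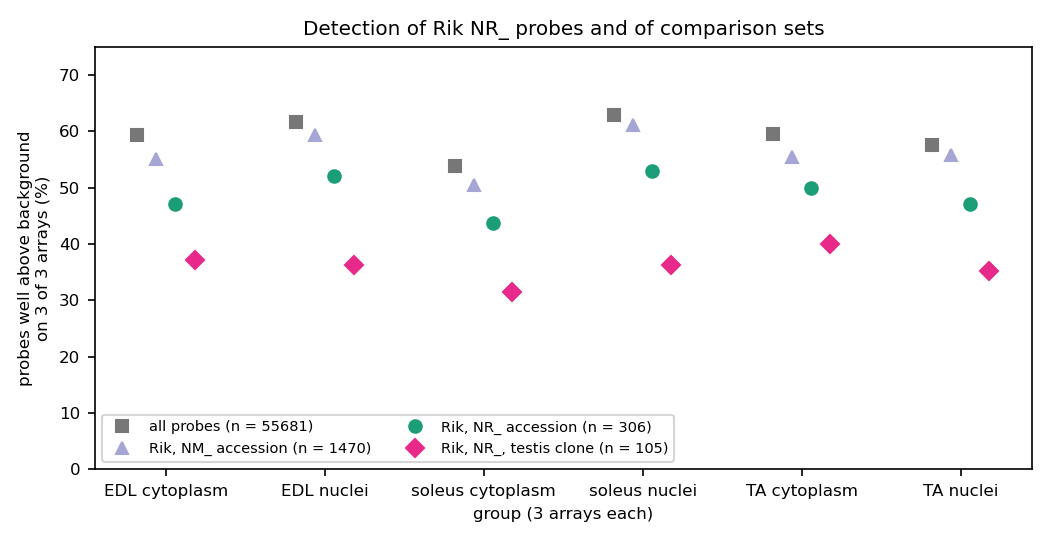
Share of probes (%) well above background on 3 of 3 arrays in each of the 6 groups, for all probes, Rik genes with NM accessions, Rik genes with NR accessions and those of the last from testis clones. In every group the Rik NR probes (43.8% to 52.9%) lie below all probes, and the testis clones (31.4% to 40%) lie lowest.

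Between the fractions, more members were higher in cytoplasm than in nuclei. Differences are nuclei minus cytoplasm on the log2 scale, from a limma fit to the normalized signals of all probes, and a probe was called at an adjusted p under 0.05 (Benjamini-Hochberg, over all probes tested). Over the 3 muscles 192 member probes could be tested, 45 (23.4%) were higher in nuclei and 79 (41.1%) were lower. Over all probes tested 31.2% were higher in nuclei and 38.6% lower, so the members' share of higher calls was below that background and their share of lower calls near it. By gene, each read by its brightest tested probe, 36 of 167 genes were higher in nuclei and 74 lower. No share by gene over the whole array is given beside this count, so it is not read as a trait of the members. The members' median difference was -0.18, beside -0.08 over all probes, 0.10 over Rik NM probes and -0.22 over NR probes of other names.

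The same count within each muscle showed the largest excess of cytoplasmic members in TA. In EDL 32 of 213 tested probes were higher in nuclei and 53 lower, where 20.0% and 26.5% of all probes were called. In soleus 34 of 209 were higher and 41 lower, where 18.7% and 21.7% were called. In TA 20 of 212 were higher and 77 lower, where 19.2% and 33.5% were called. The members' medians were -0.16, 0.01 and -0.39, and those of all probes were -0.05, -0.01 and -0.22. Of the 192 probes tested in each muscle, 9 were called higher in nuclei in each muscle, where 10.6% of all probes were, 36 were called lower in each, where 17.6% were, and 65 were called in none, where 31.8% were.

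**Figure D2:**
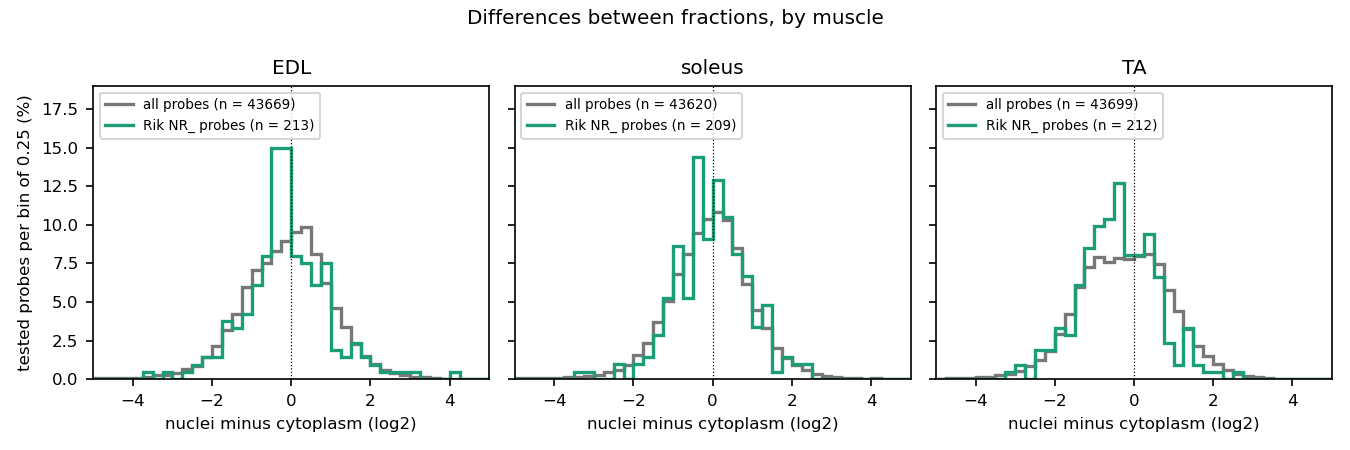
Differences between fractions (log2, nuclei minus cytoplasm; bins of 0.25) as a share of tested probes (%), for the Rik NR probes and all probes in EDL, soleus and TA. The 2 outlines overlap over most of their range, and the median of the Rik NR probes is 0.01 in soleus and -0.39 in TA.

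Some cytoplasm arrays stood apart from their group. On the first principal component of all probes soleus cytoplasm 2 lay at -5.9, beside -85.1 and -92.5 for the others of its group, and on the second TA cytoplasm 1 lay at 32.6, beside -111.3 and -112.3. Without soleus cytoplasm 2 soleus had 36 members higher and 55 lower, with a median of -0.07, and without TA cytoplasm 1 TA had 29 higher and 68 lower.

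The slide limits these counts. All EDL and soleus cytoplasm arrays were on 1 slide and all their nuclear arrays on another, so fraction and slide cannot be told apart in these muscles. With the slide as a random block the members called fell to 56 over the 3 muscles, to 24 in EDL and to 11 in soleus. The calls over all probes fell as well, to 36.1%, 12.1% and 6.89% of those tested, in that order. In TA, where 1 cytoplasm array shared a slide with the 3 nuclear arrays, the block gave 97 called, with 23 higher and 74 lower, beside 50.4% of all probes. Keeping only that cytoplasm array for TA, a comparison with 1 cytoplasm sample whose spread is borrowed from the other groups, gave 94, with 24 higher and 70 lower. The nuclear arrays of a muscle differed little among themselves, and the reported fit counts them as 3 samples by the labels. When they were averaged into 1 sample, fewer members were called over the 3 muscles and in each muscle. The calls over all probes fell as well.

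The direction of the balance also rests on the background filter in soleus and on scaling the arrays to each other. Where only signals well above background were used, soleus had 32 members higher and 17 lower in nuclei. With no scaling the median of all probes over the 3 muscles was 0.42 in place of -0.08, and in soleus 0.96. The split was then 82 higher and 35 lower over the 3 muscles, 57 and 30 for EDL, and 117 and 7 for soleus, while TA had more members lower, 25 and 68. With arrays scaled by their 75th percentile the split in soleus was 28 and 64. The values the authors deposited cover 134 of the member probes, and on these the split was 51 and 34 over the 3 muscles, 28 and 25 for EDL, 33 and 16 for soleus, and 22 and 27 for TA. A statement that a member was nuclear or cytoplasmic is therefore relative to the other RNAs on the array.

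Of the 4 members named as microRNA hosts, 3 could be tested over the 3 muscles. Their differences ran down from 3.03 in Mir99ahg, with a median of 0.89. Mir99ahg, the host named after miR-99a, had normalized log2 signals of 7.77, 7.32 and 7.48 in EDL nuclei, 7.36, 7.37 and 7.48 in soleus nuclei, and 6.47, 6.41 and 6.37 in TA nuclei. In cytoplasm it gave 3.32 and 3.32 on the EDL arrays with a value, 4.43, 6.02 and 4.95 in soleus, and 4.15 and 3.47 in TA. Every nuclear value lay above every cytoplasmic one. The difference over the 3 muscles was 3.03 ± 0.20 (SE of the limma fit, adjusted p = 2.78e-08), the largest in that direction among the 192 members tested. In EDL cytoplasm the probe was not well above background on any array, and nuclei there were at least 10.1-fold higher. In the RefSeq table the gene model does not include the Mir99a hairpin, which lies on the same strand.

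Mir100hg, the host of miR-100, let-7a-2 and miR-125b-1 on chromosome 9, was 0.89 ± 0.21 higher in nuclei (limma, adjusted p = 0.00156). Its nuclear signals were 7.56, 7.58 and 7.43 in EDL, then 7.77, 7.74 and 7.91 in soleus, and 6.10, 6.32 and 5.74 in TA, against 7.14, 7.22 and 5.71, then 6.30, 7.07 and 5.66, then 5.71, 5.49 and 5.86 in cytoplasm. The fractions did not overlap in EDL and soleus and overlapped in TA. Within a muscle only soleus passed the test (1.46 ± 0.37, limma, adjusted p = 0.00554), and over the 3 muscles the call was lost with the slide as a random block. Mir22hg gave 0.49 ± 0.18 (adjusted p = 0.0222) over the 3 muscles and passed in none of them alone. Mir124-2hg (2610100L16Rik), the last of the 4 members with a microRNA host symbol, was tested in EDL and TA only, with -0.38 (adjusted p = 0.409) and 0.05 (adjusted p = 0.908). 6430411K18Rik, which holds the Mir433 hairpin on its strand, gave -0.04 ± 0.15 (adjusted p = 0.821), and F630028O10Rik, which holds Mir223, was not well above background on any array. Mir22hg, Mir124-2hg, 6430411K18Rik and F630028O10Rik were picked by their annotation after values were seen.

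Firre, an X-linked lncRNA known for tethering chromosomal sites within the nucleus, gave different answers by probe. With probe 1 its nuclear signals were 6.68, 6.72 and 6.64 in EDL, then 8.03, 6.99 and 6.92 in soleus, and 5.92, 6.09 and 5.70 in TA, above the cytoplasmic 5.58, 4.77 and 5.09, then 5.14, 4.80 and 5.61, then 5.62, 5.50 and 4.69. The difference was 1.43 ± 0.19 over the 3 muscles (limma, adjusted p = 6.86e-06). With probe 2 it was -0.32 ± 0.16 (adjusted p = 0.0907) over the muscles and -1.27 ± 0.28 in TA (adjusted p = 0.00153), where the cytoplasmic signals were 9.02, 10.45 and 9.43 and the nuclear ones 8.29, 8.42 and 8.38. The remaining probe was not well above background on any EDL cytoplasm array, and EDL nuclei were at least 1.61-fold higher (adjusted p = 0.000525).

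The other members that led on the nuclear side were less well known RNAs. Leading members were ranked among the 45 probes past the threshold with no overlap between fractions in any muscle and a signal well above background in each group. Of these 9 were higher in nuclei, where 11.9% of all 40541 probes tested met the same rule, and 36 lower, where 17.1% did, beside 192 members tested. D330041H03Rik gave nuclear signals of 6.43, 6.35 and 6.56 in EDL, then 6.61, 6.61 and 6.71 in soleus and 6.60, 6.70 and 6.66 on the TA arrays. Its cytoplasmic signals were 5.43, 5.39 and 4.86, then 5.11, 5.91 and 5.30, then 5.14, 3.81 and 4.40. The difference was 1.54 ± 0.16 (limma, adjusted p = 8.46e-07), and the Abca3 probe that covers the same bases on the other strand gave 1.31 ± 0.13 (adjusted p = 4.14e-07). How far the labelling kept the strands apart was not tested.

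2610005L07Rik and 6820431F20Rik, transcribed pseudogenes near each other on chromosome 8, were higher in nuclei by 1.52 ± 0.17 (limma, adjusted p = 1.69e-06) and 1.46 ± 0.13 (adjusted p = 1.01e-07). Their probes share no run longer than 6 bases. 1110038B12Rik, which neighbours Hspa1b, was higher by 1.07 ± 0.12 (adjusted p = 1.53e-06), with nuclear signals of 8.82 to 9.09 and cytoplasmic ones of 7.52 to 8.28. 2410006H16Rik, which neighbours Lrrc75a, was higher by 0.91 ± 0.14 (adjusted p = 4.24e-05). Both were called in each of the 3 muscles, and the call of 2410006H16Rik over the muscles was lost with the slide as a random block. Dubr (5330426P16Rik), an lncRNA studied in muscle cell differentiation, was higher by 1.16 ± 0.28 over the muscles (adjusted p = 0.00191), and with the slide as a random block its difference of 0.49 did not pass.

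On the cytoplasmic side a leading pair stood apart by their size. 1810064F22Rik, an lncRNA on chromosome 9, gave cytoplasmic signals of 7.41, 7.76 and 7.64 in EDL, then 8.47, 6.37 and 7.56 in soleus and 7.98, 7.21 and 7.44 on the TA arrays. Its nuclear signals were 4.21, 4.51 and 4.80, then 4.48, 4.31 and 3.95, then 4.61, 5.06 and 3.65. The lowest cytoplasmic array thus lay above the highest nuclear one, with a difference of -3.14 ± 0.25 (limma, adjusted p = 4.71e-08). 4933406F09Rik, from a testis clone, gave -3.12 ± 0.28 (adjusted p = 1.25e-07), with cytoplasmic signals from 6.41 to 8.94 and nuclear ones from 3.56 to 4.87.

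Other leading members had smaller differences. With 1 of its 2 probes 1500011B03Rik gave 8.87 to 9.66 in cytoplasm and 6.95 to 7.51 in nuclei, a difference of -1.99 ± 0.12 (limma, adjusted p = 3.1e-09), while its other probe, with overlapping fractions in every muscle, gave 0.12 ± 0.28 (adjusted p = 0.708). 1700030C10Rik, also a testis clone, gave -1.86 ± 0.15 (adjusted p = 6.78e-08). 4833422C13Rik, D430020J02Rik, Appbp2os (D630032N06Rik), 3110099E03Rik and 2700099C18Rik followed, with differences from -1.82 to -1.41. By the probes named here all of these were called lower in nuclei in each muscle.

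**Figure D3:**
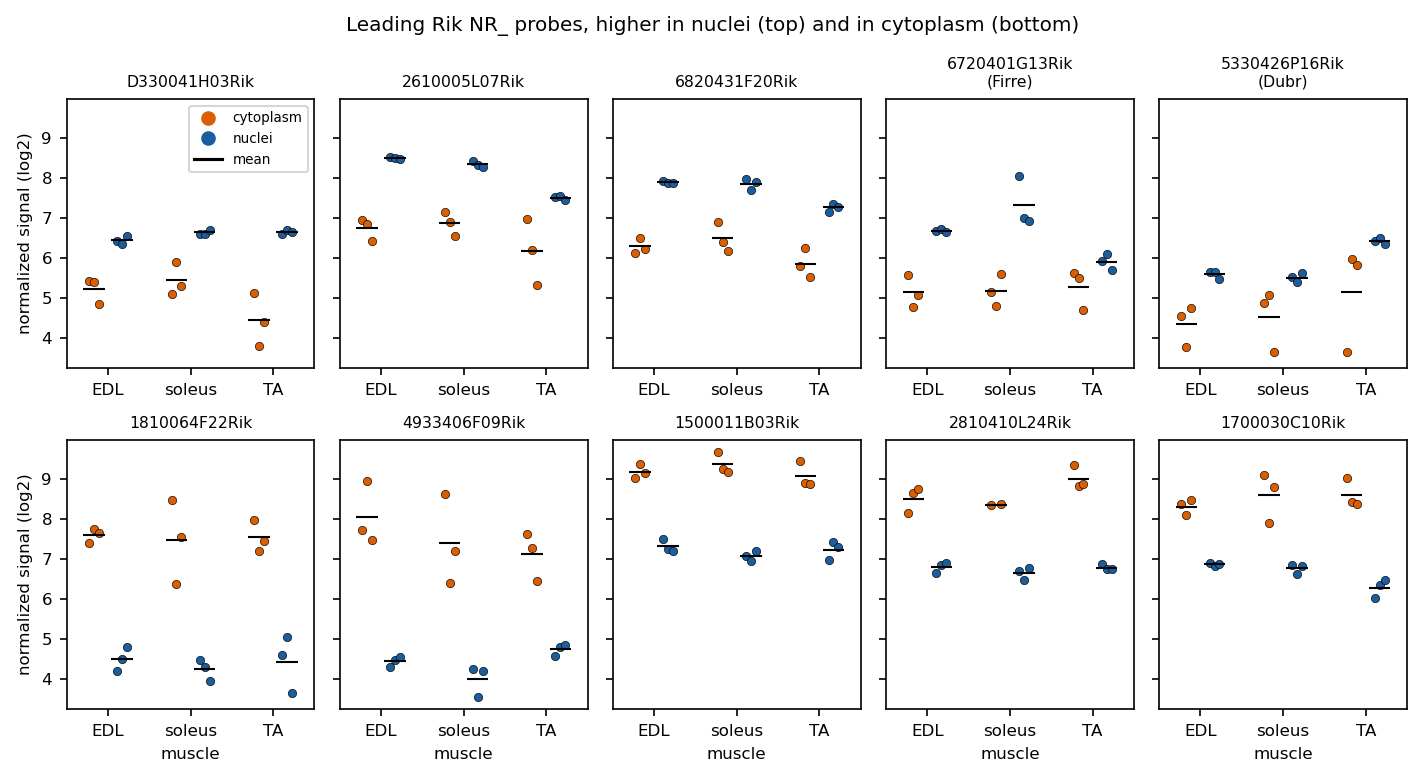
Normalized signal (log2) on each of the 18 arrays for the 5 leading Rik NR probes higher in nuclei (top) and the 5 leading ones higher in cytoplasm (bottom); points are arrays and lines are group means, by muscle and fraction. The fractions do not overlap in any panel and muscle, which the choice of these probes required. 1810064F22Rik drops from 6.37 or more in cytoplasm to 5.06 or less in nuclei. Levels of different probes cannot be compared.

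For members well above background on 3 of 3 arrays of one fraction and none of the other, only a lower bound of the difference can be given. EDL had 10 such probes higher in nuclei and 6 lower, soleus had 14 and 3, and TA had 2 and 12, each of 306. Of all probes on the array EDL had 3.08% and 3.21% of this kind, soleus 3.93% and 1.43%, and TA 1.57% and 4.02%. The test could be run on 9 and 3 of the members in EDL, of which 8 and 3 passed. In soleus it could be run on 10 and 3, of which 7 and 3 passed, and in TA on 2 and 11, of which 2 and 8 passed. The rule that picked these probes and the test read the same signals, so the passes and p-values are not separate evidence. On the nuclear side E130201H02Rik was at least 3.38-fold higher in EDL (limma, adjusted p = 0.00679), as was 8430431K14Rik, which lies within Prkg1, at least 2.82-fold (adjusted p = 2.74e-05). Zbtb11os1 (2310061J03Rik), antisense to the zinc finger gene Zbtb11, was at least 1.97-fold higher in TA (adjusted p = 0.0113). On the cytoplasmic side 1700020N18Rik was at least 6.34-fold higher in TA cytoplasm (adjusted p = 2.15e-05), Mccc1os (A330050B17Rik) at least 3.52-fold (adjusted p = 0.00181) and F830002L21Rik at least 3.37-fold (adjusted p = 5.13e-06). 4930412O13Rik was at least 4.37-fold higher in soleus cytoplasm by 1 of its 2 probes (adjusted p = 0.00136). 4930583K01Rik was at least 2.61-fold higher in EDL cytoplasm (adjusted p = 6.29e-05), 1.90-fold in soleus and 2.41-fold in TA, and so had such a bound in all 3 muscles.
9530091C08Rik, which lies within the nuclear receptor gene Rora, had signals of 6.89, 6.76 and 6.73 in EDL nuclei against 3.26, 4.79 and 3.59 in EDL cytoplasm, a difference of 2.91 ± 0.33 (limma, adjusted p = 4.18e-05). It was at least 2.5-fold higher in soleus nuclei, with a value on 1 cytoplasm array and so no test. Arhgap20os (9230115E21Rik) was at least 2.35-fold higher in soleus nuclei (adjusted p = 0.000854), and in EDL and TA its differences of 0.26 and -0.33 did not pass. 2610035D17Rik was at least 2.35-fold higher in soleus cytoplasm (adjusted p = 0.0361) and 2.63-fold in TA cytoplasm (adjusted p = 0.00119), and in EDL its difference was -1.56 ± 0.46 (adjusted p = 0.0122). 1700026D11Rik was at least 2.57-fold higher in EDL cytoplasm, with too few nuclear values for a test.
A large bound did not always pass. 4921531C22Rik was at least 3.31-fold higher in soleus nuclei, where its signals were 6.24, 6.37 and 6.12, but its limma test gave adjusted p = 0.313. On 1 array, EDL nuclei 1, this probe read 12.26, where the other EDL nuclear arrays read 5.26 and 5.30.

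The balance was counted by class, with no test between classes. Of 143 tested lncRNA probes, 29 (20.3%) were higher in nuclei and 62 (43.4%) lower over the 3 muscles. Of 23 probes of transcribed pseudogenes 6 were higher and 7 lower, and of 23 probes of genes now protein coding 10 (43.5%) were higher and 8 (34.8%) lower. Their medians were -0.19, 0.04 and 0.26. Members from testis clones had 7 higher and 22 lower among 53 tested, with a median of -0.23, and the other clones 37 and 57 among 138, with -0.16. The medians were not tested against each other. The GC content of the probes moved with the direction of the calls: the median was 38.3% in members higher in nuclei and 45.0% in those lower, beside 41.7% and 45.0% over all probes called, and its part in the differences was not tested.

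Among the genes whose clones were later found to be coding, Mtln (1500011K16Rik), which encodes a mitochondrial inner membrane micropeptide, was higher in nuclei with both probes, by 0.84 ± 0.16 (limma, adjusted p = 0.000271) and 0.72 ± 0.16 (adjusted p = 0.000965). Nbdy (2210013O21Rik), whose micropeptide binds the mRNA decapping complex, was higher with both probes as well, by 0.40 ± 0.13 (adjusted p = 0.0102) and 0.34 ± 0.12 (adjusted p = 0.0217). Ube2d2b (1700013N18Rik), a ubiquitin-conjugating enzyme gene, was higher by 1.15 ± 0.24 and 0.94 ± 0.23, but its probes share 55 bases and are not separate evidence. Smim4 (2010107H07Rik), which encodes a small mitochondrial membrane protein, was higher by 0.86 ± 0.16 (adjusted p = 0.000255) with 1 probe and gave -0.19 with the other. Spaar (5430416O09Rik), whose polypeptide acts on amino acid sensing at the lysosome, gave 0.26 ± 0.13 (adjusted p = 0.0868). Smim41 (6030408B16Rik), 4930523C07Rik and 1810058I24Rik were lower in nuclei with 1 probe each, by 0.78, 0.82 and 0.83 on the log2 scale, and the other probe of 1810058I24Rik gave 0.33 ± 0.30 (adjusted p = 0.335). Nbdy, Spaar, Smim41 and 4930523C07Rik were chosen after values were seen.

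The following genes were picked by their current symbols after values were seen. Crnde (4933436C20Rik), an lncRNA named from colorectal tumours, was lower in nuclei by 1.37 ± 0.21 on the log2 scale (limma, adjusted p = 2.73e-05) and passed in each muscle, although in soleus nuclei it was not well above background on any array. Snhg17 (9430008C03Rik), a small nucleolar RNA host gene, was lower by 0.92 ± 0.09 (adjusted p = 4.55e-07), while Snhg16 (1810032O08Rik), another such host, was higher with both probes, by 0.73 ± 0.27 (adjusted p = 0.0237) and 0.28 ± 0.10 (adjusted p = 0.0245), the first of them not well above background on any cytoplasm array of EDL and soleus. Ftx (B230206F22Rik), which lies in the X-inactivation centre and carries Mir421 and Mir374b on its strand, was higher in nuclei by 0.47 ± 0.12 (adjusted p = 0.00234) with the probe that could be tested. Norad (2900097C17Rik), which binds Pumilio proteins in the cytoplasm, had 4 probes with differences from -0.15 to 0.38, of which the highest alone passed (adjusted p = 0.00782). Dancr (2700023E23Rik) gave -0.15 ± 0.32 (adjusted p = 0.695).

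Probes of the same gene differed in some members, and no such count over other genes of the array is given beside this. Of the 40 member genes with several probes, 22 had at least 2 that could be tested over the 3 muscles. In 4 of these genes all tested probes were called in 1 direction, and in 3 genes, named here for that reason after values were seen, probes were called in opposite directions. Probe 1 of 2810410L24Rik was lower in nuclei by 1.88 ± 0.12 on the log2 scale (limma, adjusted p = 1.01e-08) with cytoplasmic signals of 8.14 to 9.34 and nuclear ones of 6.47 to 6.90, while probe 2 was higher by 0.46 ± 0.18 (adjusted p = 0.0344) with overlapping fractions. For 4933409K07Rik one probe gave -0.61 ± 0.11 (adjusted p = 0.000111) and the other 1.00 ± 0.14 (adjusted p = 1.53e-05). For Inafm2 (5430417L22Rik), now a coding gene, they gave -0.63 ± 0.09 (adjusted p = 1.39e-05) and 0.55 ± 0.12 (adjusted p = 0.000912). The GC content of the Inafm2 probes was 68.3% and 86.7%, in that order. The probes of a gene are read from the same RNA samples, and which transcripts each of them binds was not tested.

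**Figure D4:**
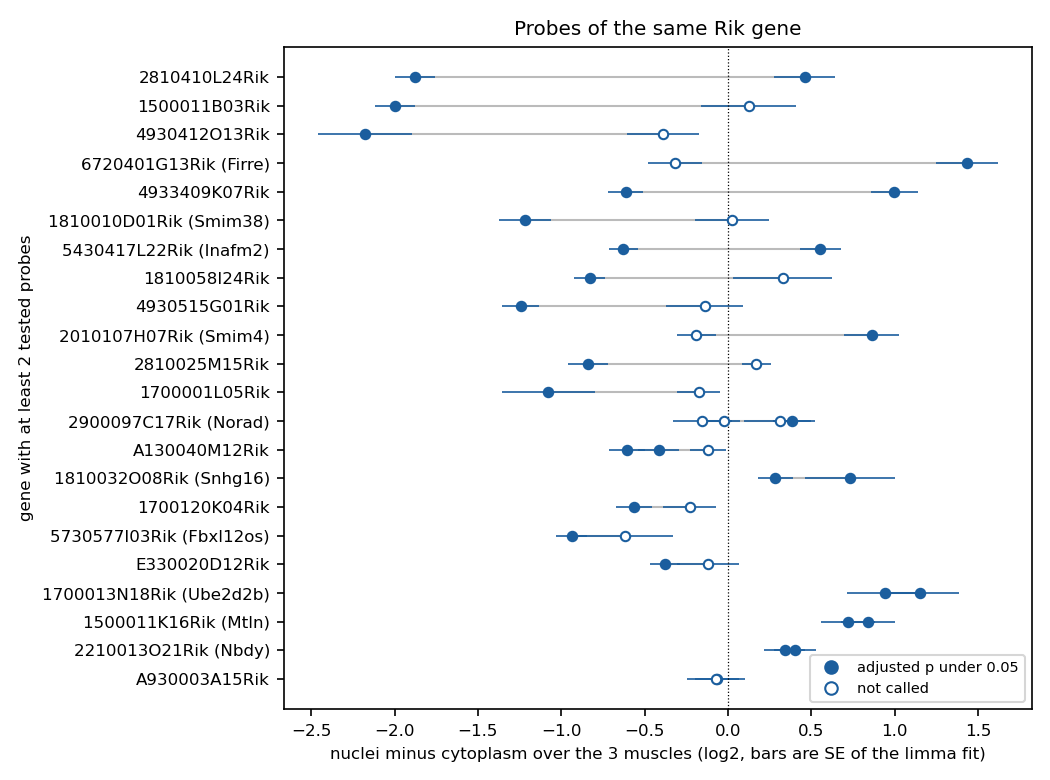
Differences between fractions over the 3 muscles (log2, bars are SE of the limma fit) of the 22 Rik NR genes with at least 2 tested probes; filled points are called, open points not. The widest gap is in 2810410L24Rik, from -1.88 to 0.46, and the probes of Mtln lie close together at 0.72 and 0.84.

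Sharing of bases with other probes bears on a few members. Of the 306 probes, 21 share at least 30 bases with a probe of another name, on either strand. 1600029O15Rik, chosen after these matches were seen, shares up to 39 bases with probes of the ribosomal protein gene Rpl17 and its copies, so its signal cannot be assigned to 1 gene. The probes of Crnde, Dancr (2700023E23Rik) and Foxd2os (9130206I24Rik) share 47, 60 and 60 bases with lincRNA probes on the same strand.

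Members that overlap a coding gene on the opposite strand were counted in pairs with that gene. By RefSeq positions 38 member genes with a tested probe overlapped a tested coding gene on the other strand, which made 44 pairs, each coding gene read by its brightest probe. In 7 pairs both were higher in nuclei, in 7 both were lower, in 8 the member was lower and the coding gene higher, and in 0 the member was higher and the coding gene lower. The remaining pairs had at least 1 side not called. The widest contrast was 4930583K01Rik, at -2.12 ± 0.17 (limma, adjusted p = 1.93e-07), against Smg1, a kinase of nonsense-mediated decay, at 2.35 ± 0.10 (adjusted p = 1.15e-10). No nuclear array of 4930583K01Rik was well above background, so its value is a fitted one and the bounds above hold for it. Mccc1os at -1.35 ± 0.29 (adjusted p = 0.000749) stood against Mccc1, a subunit of a leucine-breakdown enzyme, at 2.06 ± 0.15 (adjusted p = 2.48e-08). E530011L22Rik and Nktr were both higher in nuclei, by 1.52 ± 0.29 (adjusted p = 0.000214) and 2.10 ± 0.14 (adjusted p = 7.9e-09). The pairs share the array and its normalization, and their signs were not tested as a set. No count over other overlapping pairs is given beside them. Over the 3 muscles 41.1% of all tested member probes were lower in nuclei and 23.4% higher, so the pair counts are not read as a trait of the members.

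The muscle changed the balance between fractions for 5 of 192 members by the test of the interaction, where 1.55% of all probes were called. Mhrt, transcribed antisense to the slow myosin heavy chain gene Myh7 and known from heart, had nuclear signals of 5.50, 6.03 and 5.44 in TA against 7.71, 7.09 and 7.00 in cytoplasm, a difference of -1.61 ± 0.25 (limma, adjusted p = 9.52e-05). In soleus its nuclear signals were 7.69, 7.86 and 7.82 against 7.29, 7.16 and 7.68, a difference of 0.41 ± 0.25 (adjusted p = 0.195), and in EDL the fractions overlapped. The interaction had an adjusted p of 0.0211 in limma's moderated F test. The Myh7 probe itself gave 0.95 ± 0.26 over the 3 muscles (adjusted p = 0.00368).

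8430429K09Rik, antisense to Rnf185, had the same form, with nuclear signals of 3.63, 4.39 and 4.58 in TA against 6.59, 6.04 and 5.70 in cytoplasm and no call in EDL or soleus. 6330549D23Rik, a transcribed pseudogene within Lix1l, was higher in soleus nuclei by 0.71 ± 0.23 (limma, adjusted p = 0.0221) and lower in TA nuclei by 1.03 ± 0.23 (adjusted p = 0.0016). Rhno1 (5930416I19Rik), a gene of the DNA damage response, was higher in soleus nuclei by 0.75 ± 0.18 (adjusted p = 0.0035) and lower in TA nuclei by 0.48 ± 0.18 (adjusted p = 0.031). These were the only 2 member probes called both ways in different muscles. E130112N10Rik was higher in nuclei by 0.80 ± 0.25 in EDL (adjusted p = 0.015) and at least 2.29-fold in soleus (adjusted p = 0.0014), where no cytoplasm array was well above background, and gave -0.52 ± 0.25 in TA (adjusted p = 0.085). With the replicate block 1 of the 5 passed, where 0.54% of all probes were called. With the slide as a random block 0 passed, where 0.074% of all probes were called and 30 members had an unadjusted p under 0.05.

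**Figure D5:**
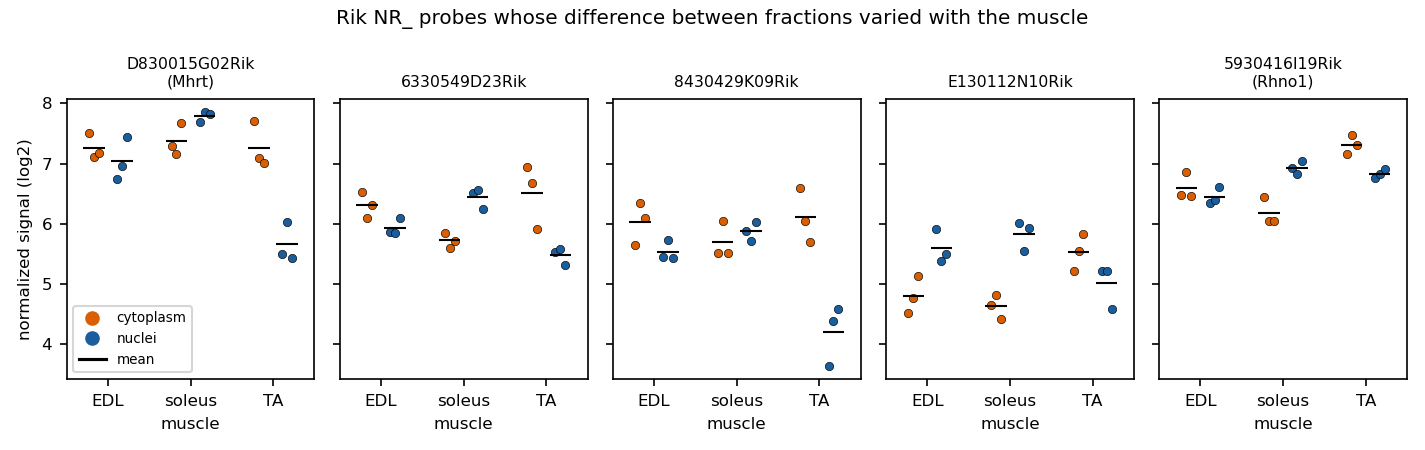
Normalized signal (log2) on each array for the 5 Rik NR probes called in the interaction of muscle and fraction; points are arrays and lines are group means. In TA the nuclear arrays of Mhrt read 5.44 to 6.03, below the cytoplasmic arrays at 7.00 to 7.71, while in soleus nuclei read 7.69 to 7.86.

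Few members differed between soleus and EDL over both fractions. Of 199 tested, 4 were higher in soleus and 1 lower, where 2.27% and 1.56% of all probes were called. 1110020A21Rik, antisense to the phosphatase gene Ppm1b, gave 7.00, 7.01 and 6.68 in soleus cytoplasm and 7.64, 7.53 and 7.63 in soleus nuclei, against 5.98, 6.10 and 5.82 and then 6.68, 6.47 and 6.64 in EDL. It was higher in soleus by 0.97 ± 0.15 (limma, adjusted p = 0.00128), and the muscles did not overlap within either fraction. G630025P09Rik was lower in soleus by 0.92 ± 0.15 (adjusted p = 0.00158), also without overlap. Lack of overlap was a condition for naming leading members of this comparison, so it is not a separate result. 8430431K14Rik, not well above background in EDL cytoplasm, and 4930417O13Rik were higher by 1.39 ± 0.30 (adjusted p = 0.0168) and 1.29 ± 0.28 (adjusted p = 0.0144), and Stk35os1 (4932416H05Rik) by 0.57 ± 0.15 (adjusted p = 0.0489); the last and 4930417O13Rik were named as the rest of the 5 calls. EDL and soleus pools of the same number came from the same mice. With that number as a block Stk35os1 did not pass (adjusted p = 0.111) and the other 4 did. With each muscle's nuclear arrays averaged, which leaves 1 nuclear sample a muscle, no member passed. The calls over all probes fell as well.

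Between TA and EDL 24 of 201 members were higher in TA and 22 lower, where 13.5% and 16.6% of all probes were called. Foxd2os (9130206I24Rik) was higher in TA by 1.09 ± 0.19 (limma, adjusted p = 0.00102), and E130304I02Rik, which overlaps Zfp507, by 1.02 ± 0.18 (adjusted p = 0.00092). Firre was higher in TA by 0.84 ± 0.20 (adjusted p = 0.00537) with probe 2 only. By the signals given above, its probe 1 read lower in TA nuclei than in EDL nuclei, and in cytoplasm the muscles overlapped. On the other side Mtln was lower in TA by 0.97 ± 0.20 (adjusted p = 0.0022), D030018L15Rik by 0.94 ± 0.25 (adjusted p = 0.0096) and 2610001J05Rik by 0.61 on the log2 scale. TA and EDL arrays lay mostly on different slides, and with the slide as a random block 0 members were called, where 17 had an unadjusted p under 0.05. With no scaling between arrays the split was 11 higher and 28 lower, where 30.9% of all probes were called. The median difference was then -0.17 over the members and -0.16 over all probes. On the deposited values the split was 9 and 15. For the slide block and the deposited values no share over all probes is given here.

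Facts of the whole series bear on these values. The median SD between replicate arrays was 0.11 to 0.15 in nuclear groups and 0.25 to 0.40 in cytoplasmic ones, and 3 arrays a group limit the precision throughout. Known nuclear RNAs went with the labels, since all 5 tested of Malat1, Neat1, Xist, Meg3 and Kcnq1ot1 were higher in nuclei, with a median difference of 2.78. Of 12 myofiber markers 8 were higher in nuclei and 0 lower. Markers of other cells also moved with the fraction. All 4 endothelial markers, all 4 of connective tissue and 3 of 4 of Schwann cells were higher in nuclei, and their summed signals (log2) ran from 9.82 to 11.72 in cytoplasm and 11.74 to 12.25 in nuclei, from 12.84 to 14.55 and 14.15 to 15.28, and from 7.34 to 9.12 and 8.99 to 10.76. Of the macrophage markers 2 of 3 were lower in nuclei (11.46 to 12.76 in cytoplasm, 11.28 to 11.50 in nuclei). Of the erythroid ones 1 of 3 was lower (12.59 to 13.61 in nuclei, 12.99 to 14.74 in cytoplasm). Of the satellite cell ones 1 of the 2 tested was lower (10.35 to 11.88 in cytoplasm, 9.55 to 10.56 in nuclei). That one was Myod1, at -1.61, while Ncam1 gave 0.23 and was not called, and Pax7 and Myf5 could not be tested. The part of such cells in the members' differences was not tested. In such bulk pools fewer cells of a type and less RNA per cell cannot be told apart.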

How the data were processed

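RNA of 18 pools was hybridized on single-channel Agilent arrays. The labels gave each pool's group and replicate number. Per the file headers, the authors' scanner files hold a background-corrected intensity per spot from Feature Extraction 10.7.3.1, on mm9. The authors also deposited quantile-normalized intensity for 3668 probe names, used as an alternative only.

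Processed intensity was taken to log2. Spots that were not positive and significant, or were flagged as outliers, were set to missing, and 3671 control spots were dropped. Quantile normalization and averaging of spots by probe name followed the study's methods. All 55681 probes were fitted together in limma 3.58.1 (R 4.3.3, eBayes, prior degrees of freedom 3.27) with 1 mean for each of the 6 groups, and a probe was tested with values on at least 2 arrays of each group involved (on 1 where an alternative leaves 1 array). P-values are 2-sided moderated tests, adjusted by Benjamini and Hochberg over all probes tested, with a threshold of 0.05. The study's own test, Significance Analysis of Microarrays, was an alternative within muscles, with other scalings, background corrections, filters, blocks and each array left out. Code was tested on simulated data. Python 3.11.15, pandas 2.3.3, numpy 2.4.6 and matplotlib 3.10.9 were used for summaries and figures.

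The members, gene lists and rules were chosen with earlier results of these data known. Named genes were, over the 3 muscles, up to 10 genes each way past the threshold, with no overlap between fractions in any muscle and well above background in each group; 3 each way within a muscle or between muscles; the 5 smallest p of the interaction; 3 lower bounds for each muscle and direction; and 6 members of a fixed list of 13 genes. Genes outside this rule are named as chosen after values were seen. For a bound, the brighter mean was set against a floor on each array of the dimmer group: the array's lowest signal still well above background, or the probe's signal where that was higher. RefSeq annotation (GRCm38.p6) was used for names, classes, strands and neighbours only. A gene that also meets the rule is not reported here.

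By the labels, replicate numbers pair the EDL and soleus fractions by mouse, and the TA fractions only in part. The correlations of same-numbered arrays' deviations from their group means lay between -0.087 and 0.13, and no block was used in the reported fit.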

Additional observations from a re-analysis of the deposited data

Results flagged for a closer look

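The 5 members whose difference between fractions varied with the muscle were picked out by the test of the interaction itself (limma's moderated F test, adjusted over all probes). The adjusted p was 0.0211 for Mhrt (D830015G02Rik), 0.0313 for 6330549D23Rik, 0.034 for 8430429K09Rik, 0.038 for E130112N10Rik and 0.0402 for Rhno1 (5930416I19Rik). With the TA arrays of a single slide, an alternative chosen after seeing the data that leaves 1 TA cytoplasm array and takes its spread from the other groups, it was 0.0408, 0.00783, 0.0511, 0.0583 and 0.0254 in the same order. Within TA all 5 had lower mean signal in nuclei than in cytoplasm, and in soleus all 5 had a higher one. The counts changed with single arrays, for the members and for all probes. Without any 1 of the soleus nuclear arrays, or without TA nuclei 1, 0 members were called, where 0.258% to 0.442% of all probes were. Without TA cytoplasm 2, TA nuclei 2, TA nuclei 3 or any EDL nuclear array 1 was called, where 0.498% to 0.752% of all probes were. Without TA cytoplasm 1 or TA cytoplasm 3 there were 12 and 13, where 3.97% and 4.32% of all probes were called. Without soleus cytoplasm 1 there were 9, where 2.1% of all probes were called. Apart from TA cytoplasm 1, TA arrays were on other slides than those of soleus, and the part of the slide was not tested beyond the block. With 3 arrays in each group, no test for a single outlying value was run.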

How the results depend on the processing

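The number of arrays and the slides limit these results. Each array was left out in turn, and percentages in brackets are the shares called of all probes tested. Members called then ranged from 116 to 126 over the 3 muscles (67.2% to 72.3%) and from 67 to 94 in EDL (39.3% to 52.7%). They ranged from 49 to 91 in soleus (31% to 48%) and from 82 to 107 in TA (46% to 56.9%). Between muscles they ranged from 4 to 7 for soleus against EDL (2.43% to 6.25%) and 35 to 58 for TA against EDL. No share over all probes is given in this paragraph for TA against EDL. For the interaction they ranged from 0 to 13 (0.258% to 4.32%). Soleus fell to 49 without soleus cytoplasm 3 (31%). The replicate block by the labels' pairing gave 1 in the interaction and changed no other count of calls by more than 1.5 times. With the slide as a random block 56 were called over the 3 muscles (36.1%), 24 in EDL (12.1%) and 11 in soleus (6.89%). That block gave 0 for TA against EDL and 0 in the interaction (0.074%). Averaging each muscle's nuclear arrays into 1 sample gave 61, 11 in EDL, 2 in soleus, 17 in TA, and 0 in each of soleus against EDL, TA against EDL and the interaction, where 5, 15 and 3 members had an unadjusted p under 0.05. The deposited values, which hold fewer members, gave 53 in EDL (35%), 49 in soleus (32.3%) and 49 in TA (40.3%). They gave 24 for TA against EDL and 8 in the interaction (2.37%). With no scaling 124 were called in soleus (62.1%) and 88 in the interaction (36.4%). Requiring signal well above background gave 49 in soleus (42.6%), 32 of them higher and 17 lower. It gave 2 for soleus against EDL (4.98%) and 9 in the interaction (2.88%). Significance Analysis of Microarrays called 39 in TA (23.6%). The interaction gave 12 with normexp background correction (3.63%) and 16 with no flag filter (2.37%). The TA arrays of slide 4 alone, chosen after seeing the data, leave 1 TA cytoplasm array, assumed to vary like the other groups. The causes were not tested. For nuclei minus cytoplasm over the 3 muscles only, the 47 named probes had 1305 values under the alternatives. Of these 1255 kept direction and side of the threshold, 34 lost and 15 gained a call. Of the losses 14 came with the slide block (Mir100hg, 2410006H16Rik, Dubr, Mhrt, 8430429K09Rik, E130112N10Rik, 1110020A21Rik, G630025P09Rik, D030018L15Rik, E130201H02Rik, Arhgap20os, 2610035D17Rik, Mccc1os and Ube2d2b) and 13 with averaged nuclear arrays (the same without 2410006H16Rik, 2610035D17Rik, Mccc1os and Ube2d2b, and with Mtln, Smim4 and 2610001J05Rik). These losses do not bear on soleus against EDL. There 1110020A21Rik and G630025P09Rik passed with the slide block (limma, adjusted p = 0.000177 and 0.000726). The value that reversed was that of Mhrt, whose difference over the 3 muscles was -0.47 and became 0.15 with no scaling. By gene, counting every probe gave 41 higher and 78 lower, with no share by gene over the whole array beside it.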
